A study of Mus musculus with 6 samples.

Results

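The GATA transcription factors were followed in intestinal stem cells of the mouse through 5 genes, Gata2, Gata3, Gata4, Gata5 and Gata6, taken by symbol out of 16820 symbols (18376 RefSeq entries) in the table of RingKO and WT cells and out of 17076 entries in the table of the beta-catenin pair. Each of the 5 genes has 1 entry in each table, so no choice between entries was needed. RNA came from Lgr5-GFP+ cells sorted from small-intestinal crypts, with 6 libraries in 4 groups, all on a C57BL/6 background and all carrying the Lgr5Gfp-CreERT2 allele, in which the stem cell gene Lgr5 drives both the reporter and the tamoxifen-dependent Cre. RingKO (2 libraries) carried Ring1a-/- and Ring1bf/f alleles and WT (2 libraries) did not. Bcat_RingKO (1 library) carried the same Ring alleles with a Ctnnb1-ex3 allele of the beta-catenin gene, and Bcat (1 library) carried Ctnnb1-ex3 without them. The RingKO and WT mice had 3 tamoxifen injections and were taken 6 days later. The labels give no treatment for the Bcat pair, no ages and no word on whether a library is 1 animal or a pool. Ring1a (symbol Ring1) is null in every cell of a RingKO mouse, while deletion of Ring1b (symbol Rnf2) depends on Cre in Lgr5 cells, so a difference between RingKO and WT holds both.

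GATA factors are zinc finger proteins named after the short DNA word they bind. Gata2 is known for blood progenitors, mast cells and endothelium, and Gata3 for T helper and innate lymphoid cells, kidney, inner ear and the luminal breast epithelium. Gata4, Gata5 and Gata6 belong to heart and endoderm. In the mouse small intestine Gata4 keeps jejunal genes on and ileal genes off, and Gata6 is needed for normal crypt cell proliferation. Ring1 and Rnf2 are the ubiquitin ligases of Polycomb repressive complex 1, which holds developmental genes silent and gathers at unmethylated stretches rich in CG dinucleotides.

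The start sites of 3 of the 5 genes were in the RefSeq promoter table (GRCm38.p6, not the mm9 build of the deposited values), Gata2 with a pair of start sites and Gata3 and Gata5 with 1 each. Gata4 and Gata6 were not matched. The sequences are shown because they set a factor of other tissues beside one of the gut, and each runs 5′ to 3′ on the gene's own strand from 250 bases before the start to 50 after it, with each CG dinucleotide in capitals. The first is at chr6:88193641-88193940 (plus strand), the second at chr6:88198414-88198713 (plus strand), the third at chr2:9878551-9878850 (minus strand) and the last at chr2:180334630-180334929 (minus strand).
Gata2, upstream start: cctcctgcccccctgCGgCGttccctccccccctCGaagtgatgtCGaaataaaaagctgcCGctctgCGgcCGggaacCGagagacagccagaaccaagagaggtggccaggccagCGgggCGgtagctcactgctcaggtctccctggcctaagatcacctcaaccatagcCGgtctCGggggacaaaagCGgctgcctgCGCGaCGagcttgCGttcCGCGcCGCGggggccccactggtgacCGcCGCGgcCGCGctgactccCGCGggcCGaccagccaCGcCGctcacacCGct
Gata2, downstream start: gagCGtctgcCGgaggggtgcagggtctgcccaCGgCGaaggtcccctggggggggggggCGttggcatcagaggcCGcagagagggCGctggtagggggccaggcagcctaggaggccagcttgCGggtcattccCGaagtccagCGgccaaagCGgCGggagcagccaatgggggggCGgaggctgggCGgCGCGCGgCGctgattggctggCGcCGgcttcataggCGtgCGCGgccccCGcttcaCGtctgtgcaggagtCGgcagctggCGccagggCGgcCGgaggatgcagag
Gata3: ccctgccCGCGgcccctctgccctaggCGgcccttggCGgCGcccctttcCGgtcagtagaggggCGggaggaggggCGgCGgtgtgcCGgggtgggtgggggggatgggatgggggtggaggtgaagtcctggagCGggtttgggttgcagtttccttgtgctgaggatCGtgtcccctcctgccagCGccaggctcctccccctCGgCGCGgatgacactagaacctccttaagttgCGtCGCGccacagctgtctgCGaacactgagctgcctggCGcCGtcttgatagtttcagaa
Gata5: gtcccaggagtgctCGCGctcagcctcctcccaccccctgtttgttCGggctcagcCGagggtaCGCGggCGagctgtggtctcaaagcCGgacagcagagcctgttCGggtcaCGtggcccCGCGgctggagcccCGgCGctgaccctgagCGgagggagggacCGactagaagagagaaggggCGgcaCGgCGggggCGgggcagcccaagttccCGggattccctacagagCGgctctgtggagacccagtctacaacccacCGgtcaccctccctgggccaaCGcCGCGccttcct
The 300 bases held 32 and 29 CG at the starts of Gata2, 22 at Gata3 and 26 at Gata5, against a median of 7 over 32851 promoters of the same length. As many CG as at these starts, or more, were found in 9.52%, 12.9%, 23.1% and 16.9% of all promoters in that order. The gut factor Gata5 thus lay between Gata2 and Gata3 in this count. Among symbols with a listed promoter, the median number of CG was 24 for the 402 called higher in RingKO in the authors' deposited table, 21 for the 247 called lower and 20 for the 12199 among all symbols. The word GATA, searched on both strands as GATA or TATC, occurred 1 time in the Gata3 window and 0 times in the other 3, and 57.9% of all promoters held it.

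Library depth was 2911422 and 2651201 reads in RingKO, 6753789 and 6294932 in WT, 4470853 in Bcat_RingKO and 922153 in Bcat, the last being the shallowest. Single-library reads were recovered from the deposited means, and the letters A and B of the libraries are arbitrary. The targeted gene Ring1 had 9 and 11 reads in RingKO and 484 and 363 in WT, and 43 in Bcat_RingKO against 24 in the shallower Bcat. Scaled to 1000000 reads of a library, Ring1 stood at 3.09 and 4.15 in RingKO against 71.7 and 57.7 in WT, but at 9.62 in Bcat_RingKO against 26.0 in Bcat, so its null label was borne out less clearly in the Bcat pair. Rnf2 reads, 142 and 103 in RingKO and 220 and 246 in WT, had an adjusted p of 1 in the authors' deposited table, and since the floxed part is not named, these reads check nothing. The stem cell label was carried by its markers, with Lgr5 at 461 and 222 reads in RingKO, 942 and 922 in WT, 1505 in Bcat_RingKO and 146 in Bcat. These reads are not scaled for depth, and the authors' deposited means of Lgr5 were 488 in RingKO and 627 in WT. Over the 10 stem and epithelial markers normalized reads summed to 37952 and 23225 in RingKO and 42872 and 48936 in WT, so RingKO library B stood lowest, and 1 marker, Ascl2, fell in the authors' deposited table. Olfm4, the most abundant of these markers by the authors' means, had 9522 and 3135 reads in RingKO libraries A and B.

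**Figure D1:**
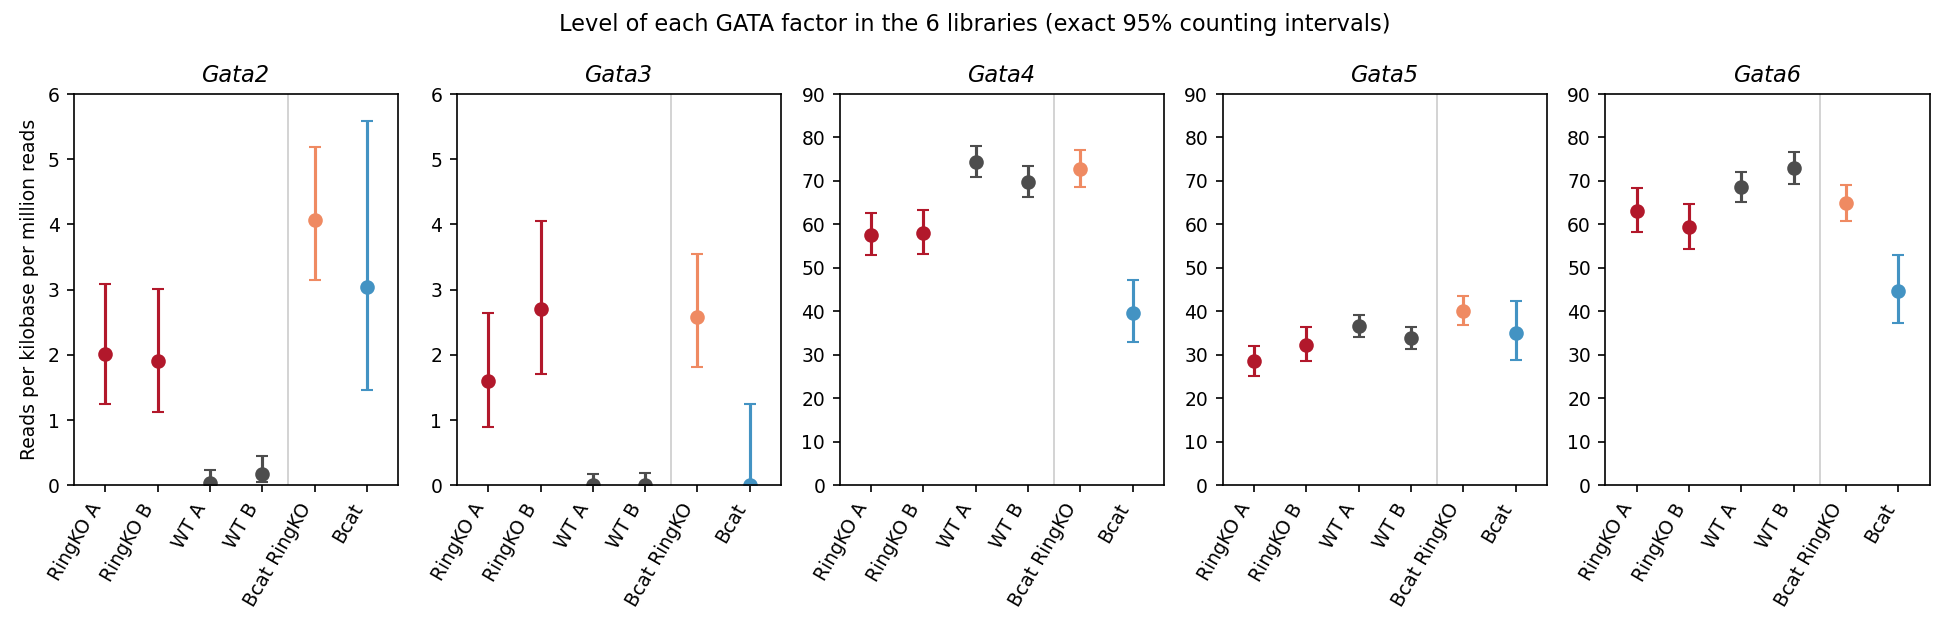
Level of each GATA gene in RPKM, reads per kilobase of transcript scaled to 1000000 recovered reads (y axis, linear from 0, with a larger range for Gata4, Gata5 and Gata6) in each of the 6 libraries (x axis); points are single libraries and bars are exact 95% Poisson counting intervals. Gata2 and Gata3 sit between 1.60 and 2.70 in RingKO and at or below 0.178 in WT, while the 3 gut factors lie between 28.5 and 74.4 in all RingKO and WT libraries.

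The gut factors were abundant in every library and Gata2 and Gata3 were rare or absent in WT. Levels between genes are given per length, as reads per kilobase of transcript scaled to 1000000 reads of a library (RPKM, or RPM without the division by length). In WT Gata4 stood at 74.4 and 69.8 RPKM and Gata6 at 68.5 and 72.9 RPKM, and Gata5 at 36.6 and 33.8 RPKM, while Gata2 stood at 0.0415 and 0.178 RPKM and Gata3 had no reads. Among the entries with a known transcript length (17963 in RingKO and WT, 16707 in the Bcat pair) Gata6 lay above 86.0% to 93.2% of entries, Gata4 above 84.5% to 93.1% and Gata5 above 81.0% to 85.8%, over the 6 libraries. Gata2 lay above 12.7% to 49.7% of entries and Gata3 above 0% to 49.9%. Gata4 and Gata6 were close to each other in each library. Their per-length ratio was 0.912 and 0.979 in RingKO and 1.09 and 0.958 in WT, with 95% counting intervals that held 1 in both RingKO libraries and in WT library B, and 1.12 (1.03 to 1.23) in Bcat_RingKO against 0.886 (0.688 to 1.14) in Bcat. Gata5 was lower than Gata6, with ratios of 0.451 and 0.545 in RingKO and 0.533 and 0.464 in WT. In Bcat_RingKO the ratio of Gata5 to Gata6 was 0.618 (0.556 to 0.685), and in Bcat it was 0.787 (0.604 to 1.02), the only one of the 6 whose interval reached 1.

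The first comparison set RingKO beside WT for each GATA gene. Gata2 and Gata3 rose and Gata4, Gata5 and Gata6 did not pass the test. Across the 18376 entries of the authors' deposited table, 3.14% were called higher and 1.76% lower (adjusted p below 0.05, the threshold for "rose" and "fell"). With 5 members picked with results known, 2 of 5 higher is a count of these genes and no rate for the family. The 2 RingKO and 2 WT libraries are numbered as replicates, and nothing says that they came from separate animals. The p-values therefore speak of the spread among 4 libraries, which may be technical. In bulk RNA, fewer cells that express a gene and less RNA per cell cannot be told apart.

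Gata3, the T helper and kidney factor, had 15 and 23 reads in RingKO and no reads in either WT library, so the groups did not overlap. Of all entries, 18% had normalized reads in both RingKO libraries above both WT libraries and 33.6% had them below, so lack of overlap alone tells little about a gene. This is 21.3 and 33.0 normalized reads in RingKO. Had WT held 3 reads in all, the floor set here (1.01 normalized reads), Gata3 would still be 27.0-fold higher. This fold leaves out the counting error of the RingKO reads and is no lower bound. Zero reads in WT allowed a level of up to 0.444 and 0.477 RPM (3 reads) in the WT libraries, set beside a measured 5.15 and 8.68 RPM in RingKO. The authors' deposited table gave Gata3 means of 28.6 in RingKO and 0.672 in WT, with an adjusted p of 1.57e-05, and 0.672 is what an entry without reads receives. By deposited fold it ranked 50 of the 577 entries called higher. Of 880 entries without WT reads, 55 were called higher (6.25%), among them all 31 with at least as many RingKO reads as Gata3.

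Gata2, the blood progenitor and mast cell factor, had 21 and 18 reads in RingKO and 1 and 4 reads in WT, again without overlap. In normalized reads this was 29.8 and 25.8 in RingKO and 0.639 and 2.82 in WT. The authors' deposited table gave means of 29.3 in RingKO and 2.40 in WT and an adjusted p of 0.000716. The edgeR log2 fold change from the recovered reads was 4.14 ± 0.58 (SE, 2 libraries per genotype; quasi-likelihood Benjamini-Hochberg adjusted p = 0.0029). Both genes were also called higher by edgeR, DESeq2 and limma on the recovered reads, which called 9.91%, 6.88% and 8.61% of their entries higher in that order. Gata2 was the less secure of the pair. Without WT library A, which held its single read, the edgeR quasi-likelihood adjusted p of Gata2 was 0.055, and its log2 fold change was 3.42, against 5.34 without WT library B.

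The gut factors kept high levels in both genotypes, with values in RingKO below those in WT that did not pass. Gata4, the jejunal identity factor, had 804 and 747 normalized reads in RingKO and 1083 and 1045 in WT. Both RingKO libraries were below both WT libraries. Its deposited log2 fold change was -0.45, with an adjusted p of 0.273 in the authors' deposited table, and the edgeR log2 fold change was -0.27 ± 0.13 (95% interval -0.58 to 0.03). Gata5 had 387 and 404 normalized reads in RingKO and 517 and 492 in WT, and Gata6 had 845 and 731 in RingKO and 957 and 1046 in WT, so these groups did not overlap either, as was so for 33.6% of all entries in this direction. Their edgeR log2 fold changes were -0.17 ± 0.14 (-0.49 to 0.15) for Gata5 and -0.16 ± 0.14 (-0.48 to 0.15) for Gata6. None of the 3 passed in the authors' deposited table (adjusted p = 0.637 for Gata5 and 0.574 for Gata6), where Gata4 had an unadjusted p of 0.0262 and 0 members were called lower by edgeR, DESeq2 or limma. Under the deposited scaling the 10957 entries whose mean reached 10 had a median log2 fold change of -0.18 (0.02 over all entries, many of them near 0 reads), against -0.01 over the 11170 entries tested with edgeR's TMM scaling. Relative to that median the gut factors were lower by less than the deposited values show.

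**Figure D2:**
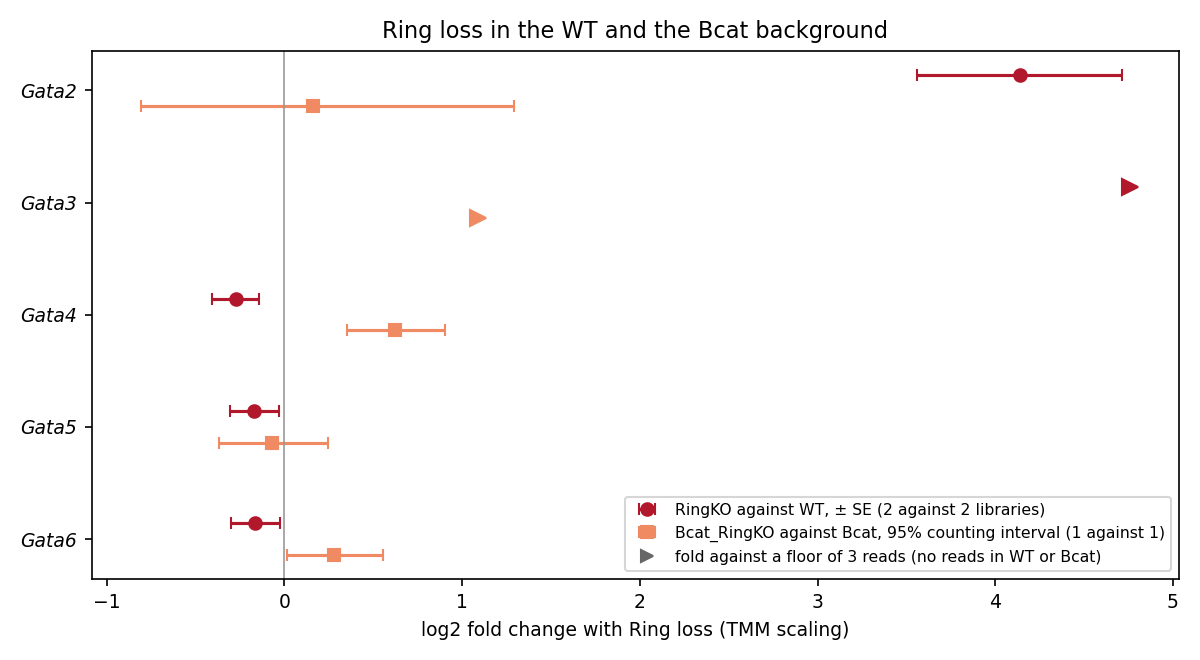
Log2 fold change with Ring loss (x axis, TMM scaling) for the 5 GATA genes (y axis); circles are RingKO against WT with SE (2 against 2 libraries), squares are Bcat_RingKO against Bcat with 95% counting intervals (1 against 1 library), and triangles are folds of Gata3 against a floor of 3 reads, that against WT on the deposited scale. Gata2 lies at 4.14 in the WT background and 0.16 in the Bcat background, and the gut factors lie between -0.27 and 0.62.

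A share within a library needs no scaling between libraries. Gata2 and Gata3 together made up 2.45% and 3.03% of the reads of the 5 genes in RingKO (exact binomial 95% intervals 1.72% to 3.38% and 2.19% to 4.09%), and 0.0250% and 0.109% in WT (0.00063% to 0.139% and 0.0297% to 0.279%). Per length the shares were 2.37% and 2.98% in RingKO and 0.0231% and 0.101% in WT. An exact two-sided permutation test of 2 against 2 libraries cannot go below p = 0.33, so the separation is given without one, and the intervals cover counting error only. Per length Gata4 made up 38.6% and 38.8% of the trio in RingKO and 41.4% and 39.5% in WT, Gata5 19.1% and 21.6% in RingKO and 20.4% and 19.2% in WT, and Gata6 42.3% and 39.6% in RingKO and 38.2% and 41.3% in WT. For Gata5 and Gata6 the groups overlapped.

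**Figure D3:**
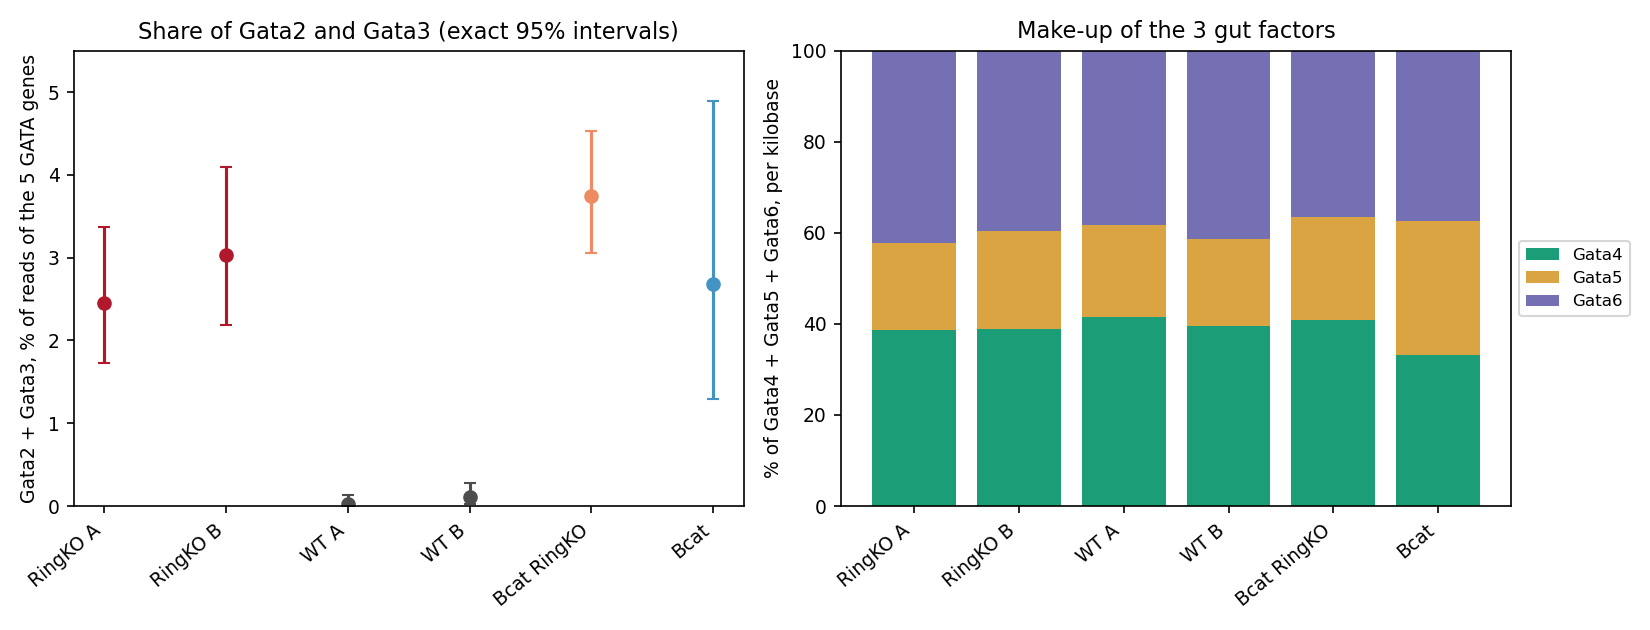
Left, share of Gata2 plus Gata3 in the reads of the 5 GATA genes (y axis, percent) per library (x axis), with exact 95% binomial intervals; right, the make-up of Gata4, Gata5 and Gata6 per kilobase (stacked, percent). The Gata2 plus Gata3 share is 2.45% and 3.03% in RingKO, 0.0250% and 0.109% in WT, 3.74% in Bcat_RingKO and 2.69% in Bcat.

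The second comparison asked what Ring loss does in cells with the Ctnnb1-ex3 allele. With 1 library a group there is no test, and ratios of normalized reads carry exact conditional binomial 95% intervals of the counts. Of the 5 genes 3 had an interval above 1, namely Gata3, Gata4 and Gata6, under the deposited scaling, TMM scaling and total reads alike. Of all 17076 entries 26.9%, 21.7% and 28.2% had one under these 3 scalings. The deposited scaling raises ratios by 0.22 on the log2 scale against TMM, and the median deposited log2 ratio was 0.31 among the 10266 entries whose mean reached 10.

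Gata3 had 37 reads in Bcat_RingKO and no reads in Bcat. Since Bcat is shallow, its floor of 3 reads stands at 3.25 RPM, below the 8.28 RPM measured in Bcat_RingKO. Had Bcat held 3 reads, Gata3 would still be 2.47-fold higher (2.12-fold with TMM scaling). This fold leaves out the counting error of the Bcat_RingKO reads and is no lower bound. Of 4564 entries without reads in Bcat, 267 (5.85%) had as many reads as Gata3 or more in Bcat_RingKO. Gata2 had 65 reads in Bcat_RingKO and 10 in the much shallower Bcat, which is 14.5 RPM in Bcat_RingKO and 10.8 RPM in Bcat, and its ratio was 1.30 (0.664 to 2.84). This interval overlaps that of Gata3, which runs upward of 1.91, and the difference between the genes was not tested.

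For Gata2 the test of the difference between the backgrounds passed. In an edgeR fit over all 6 libraries the Ring effect on Gata2 was smaller in the Bcat pair than in the WT pair (log2 difference -4.00 ± 0.91, SE; quasi-likelihood Benjamini-Hochberg adjusted p = 0.030). In that fit 5.63% of the 12302 entries were called with a lower Ring effect in the Bcat pair, and 7.26% with DESeq2's size factors. The lone Bcat_RingKO and Bcat libraries are taken to vary like the RingKO and WT libraries, DESeq2 gave no adjusted p for Gata2, and Ring1 itself differed less within the Bcat pair. With an average Ring effect over both backgrounds Gata3 was called higher (adjusted p = 0.0046, with 7.93% of entries called) and Gata2 was not (adjusted p = 0.12). The difference for Gata3 could not be estimated, because both WT libraries and the Bcat library were at 0.

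The level of Gata2 set the backgrounds apart on the control side. It was 10.8 RPM in Bcat (exact Poisson 95% interval 5.20 to 19.9) and 0.148 and 0.635 in WT (0.0037 to 0.825 and 0.173 to 1.63). Against the gut trio, which needs no scaling, Gata2 had 27.6 reads per 1000 reads of Gata4, Gata5 and Gata6 in Bcat (13.1 to 51.4), and 0.250 and 1.09 in WT (0.00633 to 1.39 and 0.297 to 2.80). The order of Gata2 levels over the 4 genotypes was Bcat_RingKO at 4.07 RPKM, Bcat at 3.04, RingKO at 2.02 and 1.90, and WT at 0.0415 and 0.178. Neighbours in this order had overlapping counting intervals except RingKO and WT. The Bcat libraries were tabulated apart from the others, and no test between Bcat and WT was made.

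Some but not all markers of mast cells, which express Gata2, had more than a few reads in the Bcat pair. Of 10 markers, 8 were listed in the Bcat pair, with summed normalized reads of 163 in Bcat_RingKO and 224 in Bcat. The mast cell protease genes Cpa3 (162 reads in Bcat_RingKO and 59 in Bcat), Tpsb2 (71 reads in Bcat_RingKO and 14 in Bcat) and Cma1 (58 reads in Bcat_RingKO and 12 in Bcat) led them. Hdc had 39 reads in Bcat_RingKO and 10 in Bcat, and Fcer1a 24 and 5. Kit, the mast cell growth factor receptor, had 3 reads in Bcat_RingKO and 0 in Bcat, Mcpt2 6 and 0, and Ms4a2 1 and 0. The part of mast cells in the Gata2 level of the Bcat pair was not tested. Among the RingKO and WT entries, scaled apart from the Bcat pair, 5 markers were listed, with sums of 4.26 and 18.7 normalized reads in RingKO and 11.5 and 16.2 in WT. Tpsb2 and Mcpt1 had no reads in either RingKO library, Kit had 0 and 1 reads there and Mcpt2 1 and 2. Hdc, the histidine decarboxylase gene, had 2 and 10 reads in RingKO and 7 and 10 in WT and made up most of the sum in RingKO library B, and Cpa3 was not analysed here in those libraries. The Bcat pair also held 37 reads of Il1rl1 in Bcat_RingKO and 19 in Bcat, a receptor gene of mast cells and innate lymphoid cells.

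Markers of T and innate lymphoid cells, which use Gata3, were near 0 in RingKO and WT. Over the 9 listed of 10 their sum was 9.95 and 15.8 normalized reads in RingKO and 15.3 and 9.16 in WT, with Cd3e at 1 and 3 reads in RingKO and 3 and 2 in WT and Ptprc at 0 in both RingKO libraries. In the Bcat pair 6 were listed, with sums of 31.8 in Bcat_RingKO and 64.8 in Bcat. Of the markers of T and lymphoid cells (9 listed), mast cells (5), endothelium (7), mesenchyme (8), erythroid cells (5) and enteric neurons and glia (5), 0 passed in the authors' deposited table, edgeR, DESeq2 and limma called 0, and 1 erythroid gene had an unadjusted p under 0.05. Of all entries the authors' deposited table called 3.14% higher and 1.76% lower. A mean of 10 was reached by 0, 0, 2, 2, 1 and 2 of these markers in that order. The absence of calls therefore tells little about these cell types. Endothelial sums were 142 and 123 in RingKO and 140 and 146 in WT, largely from Esam. Mesenchymal sums were 39.8 and 25.8 in RingKO and 34.5 and 21.1 in WT, erythroid sums 31.3 and 23.0 in RingKO and 47.3 and 40.9 in WT, and neural sums 32.7 and 40.2 in RingKO and 27.5 and 41.6 in WT. In the Bcat pair the mesenchymal sum was 5.81 in Bcat_RingKO and 110 in Bcat.

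Among the gut factors Gata4 and Gata6 had ratios above 1 in the Bcat pair. Gata4 stood at 246 RPM in Bcat_RingKO and 133 in Bcat, with a normalized ratio of 1.79 (1.48 to 2.17), or 1.54 (1.28 to 1.87) with TMM scaling. Gata6 stood at 210 RPM in Bcat_RingKO and 144 in Bcat, with a ratio of 1.41 (1.18 to 1.70), or 1.21 (1.01 to 1.47) with TMM scaling. Gata5 stood at 131 RPM in Bcat_RingKO and 115 RPM in Bcat, and its ratio was 1.11 (0.899 to 1.38) but 0.954 (0.774 to 1.18) with TMM scaling, so its direction depended on the scaling. In the other table Gata4 stood at 194 and 196 RPM in RingKO and 251 and 236 RPM in WT. For Gata4 the difference of the Ring effect was 0.86 ± 0.25 on the log2 scale (edgeR quasi-likelihood Benjamini-Hochberg adjusted p = 0.058), which did not pass. The differences for Gata5 (0.07 ± 0.26) and Gata6 (0.41 ± 0.25) did not pass either. Gata5 made up 22.4% of the reads of the trio in Bcat_RingKO (20.8% to 24.0%) and 29.3% in Bcat (24.6% to 34.3%), and these intervals did not overlap.

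Partner genes came from lists chosen with earlier results known. Their median deposited log2 fold change is set beside 0.02 over all entries and, for members whose mean reached 10, beside -0.18 over the entries that did so. Of 12 listed relatives and cofactors of the family, 0 passed in the authors' deposited table, 0 had an unadjusted p under 0.05, edgeR, DESeq2 and limma called 0, and their median was -0.27 (-0.42 over the 7 whose mean reached 10). The zinc finger cofactor Zfpm1 was the most abundant, at an authors' mean of 1530 in RingKO and 1980 in WT (adjusted p = 0.433 in the authors' deposited table). Gata1, the erythroid factor, was listed for the Bcat pair with 1 read in each library. Of 11 factors that work with Gata2 or Gata3 in blood and endothelium, 0 passed in the authors' deposited table or by edgeR, DESeq2 or limma, and 0 had an unadjusted p under 0.05 (median 0.09, and -0.20 over the 4 whose mean reached 10). Of all entries the authors' deposited table called 3.14% higher and 1.76% lower, so 0 of 12 and 0 of 11 tell little about these genes.

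Of 13 factors that work with Gata2 or Gata3 in neural, urogenital or epithelial tissue, 2 rose and 1 fell, set beside 3.14% and 1.76% of all entries (median 1.67, and 0.41 over the 7 whose mean reached 10). The 1.67 is the value of Tfap2c, with 1 and 0 reads in RingKO and 0 and 0 in WT. Without reads an entry receives 1.43 in RingKO and 0.672 in WT, so values at such low reads lean upward. On recovered reads edgeR, DESeq2 and limma each called 3 higher and 1 lower. They called 9.91%, 6.88% and 8.61% of their entries higher and 2.95%, 1.89% and 2.58% lower. Pax2, a kidney and ear factor, had 36 and 26 reads in RingKO and 0 and 0 in WT (adjusted p = 1.25e-09 in the authors' deposited table), and 44 reads in Bcat_RingKO against 0 in Bcat. Lhx1, also a kidney factor, had 45 and 38 reads in RingKO and 18 and 12 in WT (adjusted p = 0.000132 in the authors' deposited table). Isl1, a neural and endocrine factor, fell, with 0 and 2 reads in RingKO and 40 and 31 in WT (adjusted p = 0.0296 in the authors' deposited table). Pax2 shared with Gata3 the absence of WT and Bcat reads.

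Of 14 listed gut and heart factors that work with Gata4, Gata5 or Gata6, 4 fell and 0 rose, set beside 1.76% and 3.14% of all entries. The median was -0.40, and also -0.40 over the 12 whose mean reached 10, set beside -0.18 for all such entries. The 4 were Isx, a regulator of vitamin A uptake, the nuclear receptor genes Hnf4g and Hnf4a, and the caudal homeobox gene Cdx1. Isx had authors' deposited means of 230 in RingKO and 566 in WT (adjusted p = 2.7e-06 in the authors' deposited table). Hnf4a had means of 4834 in RingKO and 7403 in WT and an adjusted p of 0.0242 in the authors' deposited table. In the Bcat pair, where Gata4 and Gata6 had ratios above 1, the authors' deposited log2 ratio was -1.46 for Isx and -1.03 for Hnf4a. On recovered reads edgeR and limma each called 2 of the 14 lower and DESeq2 called 4, where they called 2.95%, 2.58% and 1.89% of all entries lower in that order.

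Genes whose level is known to depend on Gata4 in the mouse gut did not pass. Of 10 jejunal genes that need it, 0 rose and 0 fell in the authors' deposited table, 1 had an unadjusted p under 0.05, edgeR, DESeq2 and limma each called that many as higher, and the median was 0.75, with 7 above 0 and 3 below. Fabp1, a fatty acid carrier gene, had 124 and 445 normalized reads in RingKO and 192 and 147 in WT. The lactase gene Lct had 45.5 and 122 in RingKO and 56.2 and 43.7 in WT. In both genes only RingKO library B lay above both WT libraries, and for Fabp1 library A lay below both WT libraries. Abcg5 had 247 and 376 normalized reads in RingKO and 177 and 178 in WT, without overlap. Cubn, Npc1l1 and Slc5a1 had deposited log2 fold changes of -1.50, -0.30 and -0.28. Of 5 listed ileal genes that Gata4 holds down, 0 passed in the authors' deposited table or by edgeR, DESeq2 or limma, 1 had an unadjusted p under 0.05, and the median was -0.90. The ileal bile acid carrier gene Fabp6 had 28.4 and 154 normalized reads in RingKO and 226 and 175 in WT. In summed normalized reads the jejunal list was 1928 and 3560 in RingKO and 2592 and 2250 in WT, and the ileal list 58.3 and 246 in RingKO and 331 and 286 in WT. The RingKO libraries thus lay further apart than the WT libraries in both lists. In the Bcat pair the ileal sum was 183 in Bcat_RingKO and 1123 in Bcat, and the jejunal sum 1925 in Bcat_RingKO and 4785 in Bcat.

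The genes beside each GATA gene were also listed. Of the 30 nearest listed genes, 3 on each side of each GATA gene, 0 passed in the authors' deposited table, 0 had an unadjusted p under 0.05, and edgeR, DESeq2 and limma called 0. Of all entries the authors' deposited table called 3.14% higher and 1.76% lower, so 0 of 30 tells little about these genes. Some of them had almost no reads, such as Blk and Rbbp8, each with an authors' mean of 1.43 in RingKO. Beside Gata2, Rpn1, a subunit of the oligosaccharyltransferase, and Eefsec, a selenocysteine elongation factor, had deposited log2 fold changes of -0.27 and -0.35. Beside Gata3, the noncoding gene 4930412O13Rik, which overlaps it in the reference annotation, had 2 and 2 reads in RingKO and 0 and 0 in WT, and 11 reads in Bcat_RingKO against 0 in Bcat. Whether counting used strand is unknown, so reads of Gata3 and of an overlapping gene cannot be told apart where they share bases. Gata5 overlaps Gata5os, listed as Gm14318, which had 5 and 5 reads in RingKO and 15 and 13 in WT. Taf3, the next coding gene beyond Gata3, had a deposited log2 fold change of -0.41.

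**Figure D4:**
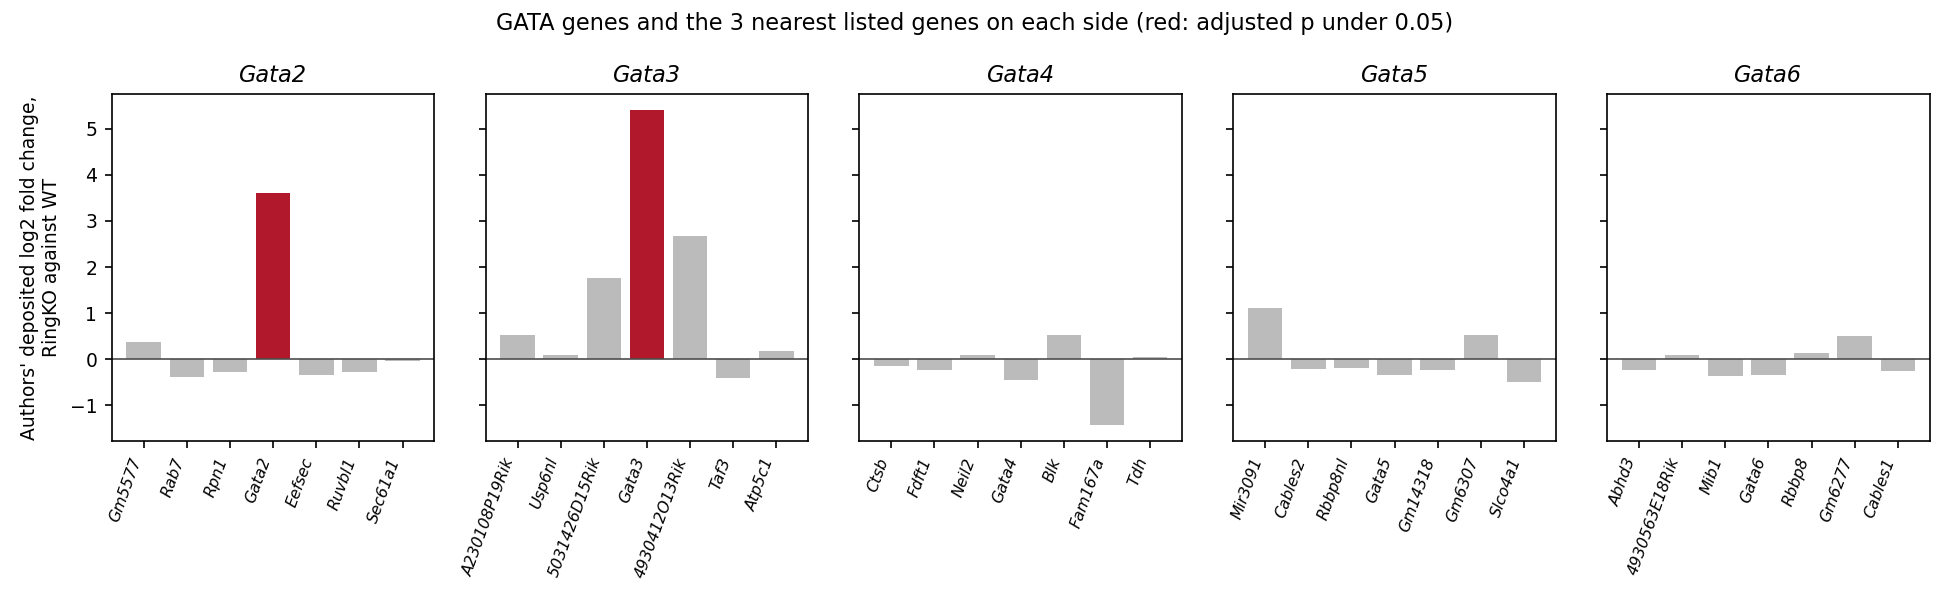
Authors' deposited log2 fold change of RingKO against WT (y axis) for each GATA gene (middle bar) and the 3 nearest listed genes on each side in chromosome order (x axis, order only, not to distance); red bars passed (adjusted p below 0.05 as deposited by the authors). Gata2 (3.61) and Gata3 (5.41) are the only red bars, and the neighbours lie between -1.44 and 2.67.

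The pattern over the 6 libraries was compared with that of 13092 entries with at least 20 reads, by the root mean square distance of log2 values centred within each table. Nearest to Gata3 were the forkhead gene Foxf2 (0.15) and the homeobox genes En1 (0.15) and Hoxd10 (0.19), each without reads in WT or Bcat. Nearest to Gata2 were Smim1 (0.26), the homeobox gene Msx2 (0.27) and Hs3st6 (0.33). The gut factors had companions at smaller distances, led by Cep68 for Gata4 (0.02), Tbc1d10b for Gata5 (0.02) and Aldh5a1 for Gata6 (0.02). None of these passed in the authors' deposited table (adjusted p = 0.554 for Cep68, 0.699 for Tbc1d10b and 0.683 for Aldh5a1). They were picked for a pattern like that of members that did not pass, so this tells nothing further. The gut factors have far more reads than Gata2 and Gata3, and counting error widens such distances at low reads. The part of read number in this contrast was not tested. Between members the distance was 0.12 for Gata4 and Gata6, 0.14 for Gata5 and Gata6 and 0.21 for Gata4 and Gata5, but 1.10 for Gata2 and Gata3 and 1.73 to 2.48 between either of these and a gut factor.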

How the data were processed

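Messenger RNA libraries (TruSeq RNA v2 kit, per the labels' protocols) were aligned and scaled by the authors, with TopHat, DESeq and mm9 named in the submitters' processing notes. The counter, its annotation and its strand setting were not found in the labels. The authors deposited normalized signal per RefSeq entry, as genotype means in the RingKO and WT table and as single-library values in the table of the Bcat pair. The authors also deposited a fold (ratio), its log2 value and p-values, which come with an adjustment for WT and RingKO. From the values, each signal is reads plus 1 divided by a size factor. Each mean was split into 2 whole counts with both known steps. In WT 18363 entries had 1 solution and 13 had several, and in RingKO 18375 and 1, and all 5 GATA genes had 1. Bcat values were whole within 0.001. The main test is the authors' adjusted p under 0.05. The recovered reads were tested with edgeR 4.0.16 (quasi-likelihood, TMM, filterByExpr), DESeq2 1.42.0 and limma 3.58.1 (log2 of normalized reads plus 1). These tests were also run on simulated data. The changes simulated for RingKO against WT lay in entries with a higher mean than Gata2 and Gata3, so calls at such low reads were not checked. SE is the fold change over the root of F. RPKM uses GENCODE lengths. The members and all gene lists were chosen with earlier results of these data known. Named genes are the members, list genes that passed (up to 4), the 3 nearest genes on each side and the 3 most similar in pattern. Others were picked after their values were seen. Depth was 922153 to 6753789 reads, so Bcat sets the weakest limits.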

Additional observations from a re-analysis of the deposited data

Results flagged for a closer look

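For Gata2 a test of the difference between the backgrounds in the effect of Ring loss passed, in a fit whose spread comes from the RingKO and WT libraries alone, since the Bcat pair has 1 library a group and was tabulated apart. The log2 difference, Bcat pair minus WT pair, was -4.00 (edgeR quasi-likelihood interaction, Benjamini-Hochberg adjusted p = 0.030), and DESeq2 gave no adjusted p. Gata2 was at 21 and 18 reads in RingKO against 1 and 4 in WT, and at 65 reads in Bcat_RingKO against 10 in Bcat. Summed mast cell markers stood at 163 normalized reads in Bcat_RingKO and 224 in Bcat (8 listed), in a table scaled apart from that of RingKO (4.26 and 18.7) and WT (11.5 and 16.2; 5 listed), and their part in this difference was not tested.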

How the results depend on the processing

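Gata3 was called higher under every alternative run for RingKO against WT, with a largest edgeR quasi-likelihood adjusted p of 0.015 without WT library A, and no gut factor was called lower under any of them. The count of members called higher was 2 of 5, and 1 of 5 for the fit over 6 libraries with background as a block; it ranged from 1 to 2 when 1 library was left out, the 1 being without WT library A. Both times Gata2 was lost, with adjusted p of 0.12 and 0.055. No other result moved to the other side of its threshold. The Gata5 difference between backgrounds was 0.07 in the edgeR fit, but -0.0860 with DESeq2's size factors and -0.0596 with DESeq2; the cause was not tested. For Gata2 that difference was -4.16 with DESeq2's size factors (adjusted p = 0.028) and -4.22 with DESeq2, which gave no adjusted p. The mean share of Gata2 plus Gata3 per length was 2.67% in RingKO (2.37% and 2.98% with 1 library left out) and 0.0619% in WT (0.0231% without library B and 0.101% without library A), so the WT share moves by over 1.5 times with either library. No paired analysis was possible because the recovered libraries cannot be tied to the replicate numbers of the labels. No member has more than 1 entry, so other entries could not be tried. Depth limits Gata2 and Gata3: 0 reads in Bcat allow 3.25 RPM.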
